A study of Homo sapiens with 12 samples.

Results

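The replication-dependent histone genes encode the bulk histones H1, H2A, H2B, H3 and H4, and they were followed here in RPE1 cells, a human line derived from retinal pigment epithelium. Members were the rows of the deposited RPKM table (reads scaled to gene length and library size) whose gene carries an older name beginning HIST1H, HIST2H, HIST3H or HIST4H. Pseudogenes, by name or annotated type, and HIST1H1T (H1-6), a testis gene, 23 rows in all, were left out. H3-7 (HIST2H3PS2) was among them by its older name, though a row of it is annotated as protein coding. Of 69 names in GENCODE 29 that meet this rule, 34 had a row among the 57773 rows of the table, and the other 35 were not analysed here. Of the 34, 29 had reads and 5 had none: H1-1, H1-3, H2AC1, H2BC1 and H3-4. A total of 20 genes were above 0 in all 12 libraries. There were 5 H1, 9 H2A, 10 H2B, 6 H3 and 4 H4 genes, and 22 lie on chromosome 6, 11 on chromosome 1 and 1 on chromosome 12.

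All cells received siRNA for 24 h with a lipid reagent, in DMEM with 10% serum, and live cells were then stained with a Hoechst dye and sorted by DNA content, per the labels' protocols. The 4 groups of 3 libraries each are non-targeting siRNA sorted as 2N (control 2N) or 4N (control 4N), and siRNA to Anillin (ANLN) sorted as 2N (Anillin 2N) or 4N (Anillin 4N). Anillin organises the ring that pinches dividing cells apart, and the title of the series ties its knockdown to polyploid cells arising from failed cytokinesis. The labels do not say whether separate cultures gave the 3 libraries of a group; p-values then reflect the spread among these libraries alone, which may be technical. DNA content alone defines the fractions: a 4N sort of control cells takes cells in G2 and mitosis, and the labels name no marker that parts tetraploid cells in G1 from cells in G2.

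Replication-dependent histone mRNAs are made mainly in S phase, when new DNA has to be packed. Most of these genes lie in clusters, lack introns, and give an mRNA that ends not in a poly(A) tail but just after a conserved stem-loop. Stem-loop binding protein (SLBP) binds that hairpin and is needed for the 3′ end cut, export and translation, and the mRNAs are degraded quickly when DNA synthesis stops. Some members also give longer, polyadenylated transcripts that read past the stem-loop, and such forms are known from differentiated or non-dividing cells. How RNA was selected therefore decides which forms a library holds. The labels name an mRNA kit that keeps strand in one place and total RNA depleted of ribosomal RNA in another, so the selection used is unsettled.

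The stem-loop was searched in the GENCODE 29 transcripts, since it marks where the S phase form of each mRNA ends. A match was present in a transcript of 18 of the 34 members, against 43 of 58676 genes (0.0733%). The sites of the members discussed most are given 5′ to 3′ as DNA, with the 16 bases of the stem-loop in capitals and 5 bases on either side.
H2AC6: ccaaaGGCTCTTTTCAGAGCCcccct
H2AC11: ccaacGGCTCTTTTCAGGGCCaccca
H2AC25: ataaaGGCTCTTTTCAGAGCCaccta
H2BC5: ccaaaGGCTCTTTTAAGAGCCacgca
H2BC21: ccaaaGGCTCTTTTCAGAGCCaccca
H4C8: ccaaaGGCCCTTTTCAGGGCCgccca
H2AC6, H2AC25 and H2BC21 share the same 16 letters, and the other 3 each differ from them within the stem or the loop. The annotated transcripts did not all stop there. They ran on for 1114 to 1128 bases after the stem-loop in H2AC6, 1729 in H2BC21, 1761 in H2AC11 and 390 in H2AC25. In H4C8 they ran on for 18 to 1655 bases, and in H2BC5 for 39. For 16 members, among them H1-2 and H2BC12, no annotated transcript held a match. The longest transcript searched was 642 bases for H1-2 and 381 for H2BC12. A stem-loop past an annotated end would be missed, so a missing match does not show that a gene lacks one.

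Promoter sequences came from RefSeq (GRCh38.p14) and matched 32 of the 34 members. Each window held 300 bases, 250 before and 50 after the start, and both strands were searched. TATAAA was in 23 of the 32 (11.5% of 35116 promoters), CCAAT in 29 (34.6%) and the octamer ATTTGCAT in 13 (1.77%). AAACACA, the H1 box, was in 8 (5.64%), including all 5 H1 genes. TTTCCCGC or TTTGGCGC, forms of the E2F site, were in 0 of 32 (2.27%). CCAAT was in every H1, H2A, H2B and H3 window searched and in 0 of 3 H4 windows. H3C4 and H2AC7 had the same window (chr6:26199244-26199543, minus strand), so it counts as both H3 and H2A. It is the only H3 window with the octamer. Windows of H2A and H2B genes that lie head to head also overlap. The 32 windows are therefore not separate stretches of DNA, and the counts repeat some matches. The 250 bases before the start are shown for the member with the most reads (H2AC6, chr6:26123922-26124171, plus strand), the only H1 gene tested (H1-2, chr6:26056471-26056720, minus strand), and the member with the largest fall in control 4N cells (H2BC21, chr1:149886683-149886932, minus strand). Capitals mark matches to these motifs on either strand.
H2AC6: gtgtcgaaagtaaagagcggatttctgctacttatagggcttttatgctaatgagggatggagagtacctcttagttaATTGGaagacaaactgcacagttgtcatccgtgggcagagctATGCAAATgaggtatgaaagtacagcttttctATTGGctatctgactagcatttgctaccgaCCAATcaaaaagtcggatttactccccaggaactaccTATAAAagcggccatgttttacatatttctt
H1-2: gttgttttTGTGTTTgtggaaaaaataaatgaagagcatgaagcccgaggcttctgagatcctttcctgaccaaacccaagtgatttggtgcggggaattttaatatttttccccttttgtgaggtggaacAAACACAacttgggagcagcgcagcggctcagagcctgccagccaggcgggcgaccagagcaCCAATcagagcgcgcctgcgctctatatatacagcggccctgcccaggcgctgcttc
H2BC21: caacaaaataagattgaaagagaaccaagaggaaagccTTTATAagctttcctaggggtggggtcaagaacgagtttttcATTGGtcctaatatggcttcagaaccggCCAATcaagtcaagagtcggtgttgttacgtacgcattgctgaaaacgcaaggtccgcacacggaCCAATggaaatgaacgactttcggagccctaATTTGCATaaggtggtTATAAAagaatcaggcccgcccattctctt
The TATA box of H2AC6 began at position -31 from the start and its octamer at -130. H1-2 had H1 boxes at -242 and -119 and a CCAAT box at -57, with no TATAAA. H2BC21 had a TATA box at -30 and an octamer at -46. The window of H4C8 held none of the 5 motifs.

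Reads recovered from the RPKM steps summed to between 17412742 and 61760450 per library, with the shallowest in Anillin 4N. ANLN was at 1.25 to 1.88 RPKM in control 2N and 7.45 to 8.42 in control 4N, and at 0.0395 to 0.0989 in the Anillin libraries. Of 8 markers of retinal pigment epithelium, TTR was at 0, TYR and TYRP1 had 5 and 38 reads over all libraries, and RPE65, RLBP1, BEST1, PMEL and MITF, with 177 to 12989 reads, passed the filter on reads. With limma-voom RPE65 rose after Anillin siRNA in 4N (0.90, adjusted p = 0.0143) and 2N (0.58, 0.0316), and RPE65 (-1.05, 0.0033) and MITF (-0.30, 0.0015) fell in control 4N against control 2N. The keratins of epithelial lines summed to 96.1 to 149.4 RPKM and the 3 mesenchymal markers to 908.6 to 1008 RPKM. With limma-trend, KRT7 rose and KRT18 fell after Anillin siRNA in both fractions, and KRT8 and VIM fell in 4N. COL1A1 rose by 0.69 in 4N and by 0.48 in 2N (limma-trend, adjusted p = 2.7e-05 and 9.4e-04). In control 4N against control 2N, KRT18, KRT7, FN1 and COL1A1 fell and VIM rose. The 5 blood cell markers summed to 12.8 to 17.4 RPKM, nearly all of it CD68, a lysosomal protein, while HBB and CD3E were at 0. CD68 fell after Anillin siRNA by 0.27 in 4N and by 0.34 in 2N (limma-trend, adjusted p = 0.0010 and 0.00085). The 3 muscle markers summed to 0.0839 to 0.224 RPKM, and ACTC1 among them rose by 1.28 in Anillin 2N over control 2N (limma-voom, adjusted p = 8.8e-04). The part of these markers in the histone values was not tested.

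Histone genes had higher summed levels after Anillin siRNA within each fraction, and the lowest in control 4N cells. In sum, the 34 genes had 38190 reads over the 12 libraries. Control 2N libraries had 82.2, 96.7 and 80.8 histone RPM (reads per 1000000 of the library total as the authors scaled it), and control 4N libraries had 55.0, 65.9 and 58.1. Anillin 2N libraries had 113.4, 120.2 and 112.7, and Anillin 4N libraries had 92.9, 96.9 and 92.3. The group means were 86.6 ± 8.79, 59.7 ± 5.63, 115.4 ± 4.13 and 94.0 ± 2.48 (SD, n = 3 each), in that order. Anillin 2N was above and control 4N below every library of the other groups, while control 2N and Anillin 4N overlapped. The mean of Anillin 4N was 1.58 times that of control 4N, and that of control 4N 0.690 times that of control 2N. With each library's recovered reads as the total, without that scaling, these ratios were 1.69 and 0.660. In the same libraries the 9 mitosis genes summed to 27.8 to 41.8 RPKM in control 2N, 237.7 to 272.1 in control 4N, 10.8 to 11.6 in Anillin 2N and 35.0 to 37.9 in Anillin 4N, and their part in the histone values was not tested. These values are relative to the other genes of a library: fewer cells with these mRNAs and less of them per cell cannot be told apart, and RNA per cell was not measured.

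**Figure D1:**
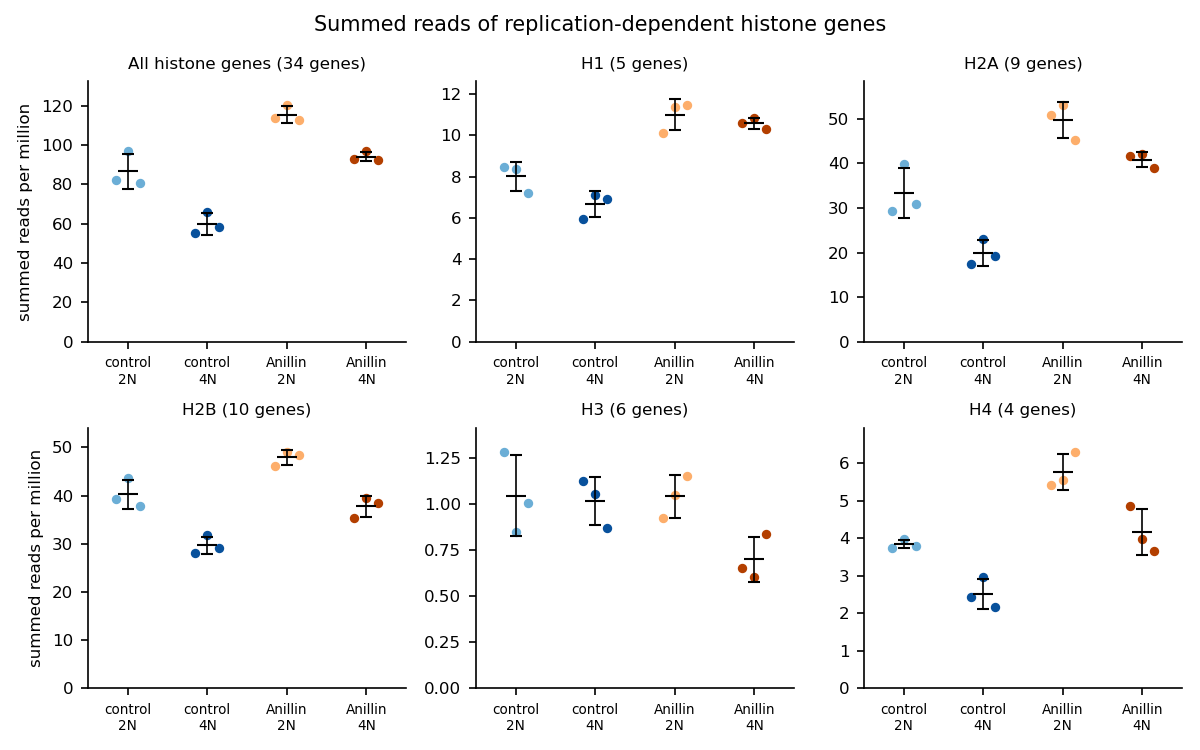
Summed RPM (y axis) of all 34 histone genes and of each class in the 12 libraries (points, 3 per group on the x axis), with mean and SD (bars). All classes but H3 were lowest in control 4N, where the 34 genes together reached 55.0 to 65.9, and highest in Anillin 2N, where they reached 112.7 to 120.2.

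A few genes carried most of these reads. H2AC6 alone had 11988 reads (31.4%), H2BC12 8016 (21.0%), H1-2 3799 (9.95%) and H2BC21 3041 (7.96%). Without H2AC6 the other 33 genes had 61.0 ± 4.14, 45.9 ± 2.59, 74.6 ± 2.27 and 61.1 ± 2.68 RPM in control 2N and 4N and Anillin 2N and 4N, in the same order. H2A genes showed the largest ratio of Anillin 4N to control 4N (2.06), followed by H4 (1.66), H1 (1.59) and H2B (1.27). The place of H2A rests on H2AC6 (2.39), since the other 8 H2A genes together had a ratio of 1.30. The sum of the H3 genes differed from the rest: their 426 reads gave 1.05 ± 0.221, 1.02 ± 0.132, 1.04 ± 0.115 and 0.701 ± 0.123 RPM, with the lowest values in Anillin 4N. That sum rests on few genes, with 223 reads from H3C12 and 149 from H3C4. H3C4 had its lowest mean in control 4N (0.194 RPM, against 0.337 in Anillin 4N). H3C12, H3C13, H3C14 and H3C15 had theirs in Anillin 4N. Of the 20 genes above 0 in all libraries, 14 had their lowest mean in control 4N and 11 their highest in Anillin 2N. Of all 24027 genes above 0 in every library, 36.6% had their lowest mean in control 4N and 22.1% their highest in Anillin 2N.

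Of the 34 genes, 12 reached an RPKM of 0.5 in at least 3 libraries and were tested on RPKM, and 18 had at least 10 reads in at least 3 libraries and were tested on reads. The reads test added 8 genes, and H2AC7 and H4C11 passed only the RPKM filter. Another 9 genes had reads, between 9 and 36 each over all libraries, and passed neither. The length behind the RPKM matched the genomic span in GENCODE 29, introns included, for 9 of the 29 members with reads and was another length for 20, so its size cannot be compared between genes. Near-identical copies or overlapping annotation make some values uncertain. All 50-base windows of H2AC18 and of H3C4 and 98.0% of those of H2AC7 occur in other genes. The other gene met most often was HIST2H2AA4 for H2AC18, and AL031777.3 for both H3C4 and H2AC7. The length behind the RPKM of H3C4 was 2454 bases, against 411 in GENCODE 29, and its promoter window was that of H2AC7. Whether H3C4 and H2AC7 share reads was not tested. For H2BC12 the share found in other genes was 74.1%, for H4C11 81.2% and for H2AC13 62.3%, against 0.421% for H2AC6, 8.11% for H2BC21 and 0% for H1-2 and H4C8.

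H1 is the linker histone that sits on the DNA between nucleosomes. H1-2 (HIST1H1C, chr6:26055787-26056428, minus strand, 1 exon) held 3799 of the 3826 reads of the class. Its RPKM was 11.5, 11.2 and 9.72 in control 2N and 8.05, 9.56 and 9.34 in control 4N. Anillin 2N libraries stood at 13.7, 15.5 and 15.6, and those of Anillin 4N at 14.5, 14.7 and 14.0. All 6 Anillin libraries were above all 6 control libraries, and the 2 Anillin fractions overlapped. H1-4 and H1-5 had 18 and 9 reads.

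H2A pairs with H2B in dimers that flank the tetramer of H3 and H4 within the nucleosome core. H2AC6 (HIST1H2AC, chr6:26124145-26139116, plus strand) was at 1.44, 2.10 and 1.59 RPKM in control 2N and 0.742, 1.14 and 0.878 in control 4N. Anillin 2N libraries stood at 2.77, 2.93 and 2.49, and those of Anillin 4N at 2.33, 2.24 and 2.04. Control 4N was below, and Anillin 2N above, all other libraries, and 1 control 2N library reached into the range of Anillin 4N.

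H2AC25 (HIST3H2A) was at 7.04, 6.36 and 5.21 RPKM in control 2N and 4.38, 4.30 and 4.62 in control 4N, then 7.46, 6.17 and 4.83 in Anillin 2N, with 5.61, 7.80 and 6.52 in Anillin 4N. Here only control 4N stood below the other 3 groups. H2AC18 (HIST2H2AA3) was at 2.74, 3.88 and 2.72 RPKM in control 2N and 2.36, 2.17 and 1.63 in control 4N, then 4.63, 4.99 and 3.32 in Anillin 2N, with 3.48, 2.82 and 3.80 in Anillin 4N. Control 4N was again below the rest, which overlapped. H2AC7 (HIST1H2AD) was at 0.388, 0.361 and 0.207 RPKM in control 2N and 0.106, 0.228 and 0.233 in control 4N, then 0.695, 0.685 and 1.02 in Anillin 2N, with 0.278, 0.563 and 0.583 in Anillin 4N. These values rest on 1 to 13 reads per library. Only Anillin libraries of H2AC7 reached 0.5 RPKM, so it passed the filter through the groups where it is high.

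The other 3 H2A genes tested passed in no comparison on RPKM with all libraries in. H2AC11 (HIST1H2AG) was at 0.838, 0.871 and 1.04 RPKM in control 2N and 0.765, 0.742 and 0.830 in control 4N, then 0.666, 0.940 and 0.991 in Anillin 2N, with 0.585, 0.741 and 0.932 in Anillin 4N. H2AC13 (HIST1H2AI) was at 0.575, 1.20 and 0.336 RPKM in control 2N and 0.393, 0.296 and 0.432 in control 4N, then 0.712, 0.738 and 0.836 in Anillin 2N, with 0.514, 0.833 and 0.4315 in Anillin 4N. H2AC20 (HIST2H2AC) was at 1.10, 0.812 and 1.19 RPKM in control 2N and 1.63, 1.49 and 1.52 in control 4N, then 1.92, 1.23 and 1.42 in Anillin 2N, with 0.624, 1.52 and 1.40 in Anillin 4N. H2AC20 was the only one of the 12 whose control 4N libraries all lay above control 2N.

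Of the H2B genes, H2BC12 (HIST1H2BK) was at 2.09, 2.08 and 1.92 RPKM in control 2N and 1.65, 1.67 and 1.64 in control 4N. Anillin 2N libraries stood at 2.79, 2.85 and 2.92, and those of Anillin 4N at 1.85, 2.30 and 2.27. Anillin 2N was highest and control 4N lowest, with no overlap with any other group. H2BC21 (HIST2H2BE) was at 3.24, 4.50 and 3.35 RPKM in control 2N and 1.54, 2.34 and 1.47 in control 4N. Anillin 2N libraries stood at 3.85, 4.29 and 4.17, and those of Anillin 4N at 2.80, 3.13 and 3.08. Both 2N groups were above both 4N groups, and control 4N was below Anillin 4N.

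H4 forms the central tetramer of the nucleosome with H3. H4C8 (HIST1H4H, chr6:26277609-26285638, minus strand) was at 0.706, 0.752 and 0.754 RPKM in control 2N and 0.401, 0.531 and 0.410 in control 4N. Anillin 2N libraries stood at 1.09, 1.16 and 1.25, and those of Anillin 4N at 0.816, 0.753 and 0.642. Its Anillin 2N libraries were above, and its control 4N libraries below, all others. H4C11 (HIST1H4J) was at 0.525, 0.284 and 0.478 RPKM in control 2N and 0.447, 0.720 and 0.307 in control 4N, then 0.449, 0.196 and 0.712 in Anillin 2N, with 0.875, 0.443 and 0.613 in Anillin 4N, from 3 to 12 reads each, and all groups overlapped.

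**Figure D2:**
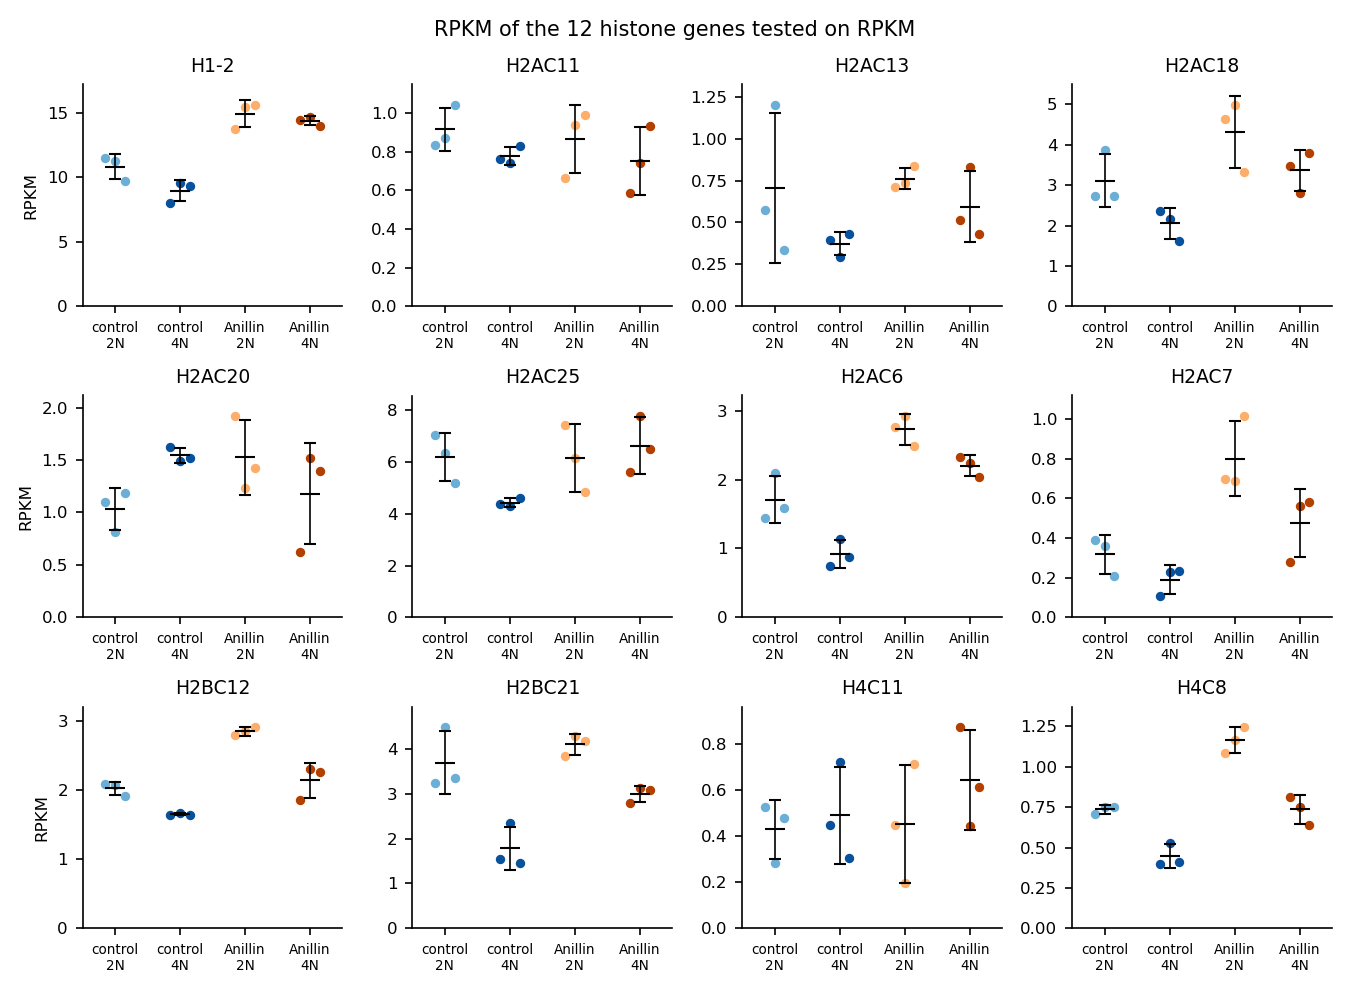
RPKM (y axis, from 0) of the 12 histone genes tested on RPKM in each library (points, 3 per group on the x axis), with mean and SD (bars). Control 4N was lowest for H2AC6 (0.742 to 1.14) and H4C8 (0.401 to 0.531), and both Anillin groups were highest for H1-2 (13.7 to 15.6).

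Between the 4N fractions, histone genes were higher after Anillin siRNA. On log2(RPKM + 0.5), with limma-trend and Benjamini-Hochberg adjustment, 8 of the 12 rose and 0 fell, where 20% of the 12892 genes tested rose and 31.5% fell (51.5% in either direction). The log2 change was 0.94 ± 0.12 (SE) for H2AC6 (adjusted p = 1.4e-04) and 0.66 ± 0.08 for H1-2 (9.8e-05). H2BC21 rose by 0.64 ± 0.15 (0.0044), H4C8 by 0.39 ± 0.07 (8.4e-04) and H2BC12 by 0.29 ± 0.06 (0.0028). The ratio of mean RPKM was 2.39, 1.60, 1.69, 1.65 and 1.29. H2AC18 (0.60), H2AC25 (0.52) and H2AC7 (0.49) rose too, with adjusted p between 0.017 and 0.024. H2AC7 entered the test only through Anillin libraries, so the filter favoured its rise and its call adds no support. In each of the 8 all 3 Anillin 4N libraries were above all 3 control 4N libraries. The share of all genes with groups apart in this way was not counted, here or in the comparisons below. Groups that lie apart therefore add no support to the calls. H2AC13 (0.31), H4C11 (0.21), H2AC11 (-0.04) and H2AC20 (-0.33) did not pass. The median of the 12 was 0.44, against -0.05 for all genes. With quantile scaling the called genes split to 52.4% higher, from 38.9%.

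3 of these calls depended on single libraries. H2AC25 missed the threshold without control 4N replicate 1 (adjusted p = 0.0506), control 4N replicate 2 (0.0502) or Anillin 4N replicate 2 (0.0698). H2AC7 missed it when control 4N replicate 1 was left out (0.0898), and likewise for Anillin 4N replicates 2 (0.0795) and 3 (0.0819). H2AC18 missed it when the third replicate of control 4N (0.0676) or of Anillin 4N (0.0594) was left out.

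On recovered reads, tested with limma-voom, 10 of 18 genes rose and 1 fell between the 4N fractions, where 20.8% and 23.6% of 22404 genes did (44.4% in all). The 7 genes shared with the RPKM calls rose again, H2AC6 by 1.22 ± 0.14 (adjusted p = 4.0e-07). The others that rose were H2BC11 (0.62 ± 0.18, adjusted p = 0.0088), H2BC5 (0.65 ± 0.23, 0.0276) and H4C16 (1.35 ± 0.41, 0.0121). H2BC15 fell by 0.33 ± 0.13 (0.0416).

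H2BC11 had 1.88, 2.15 and 2.09 RPM in control 4N and 2.84, 3.04 and 3.46 in Anillin 4N. It had 2.09, 3.16 and 2.92 in control 2N and 2.65, 3.28 and 2.22 in Anillin 2N, so that control 4N had the lowest mean, overlapping only control 2N. H2BC5 had 0.668, 1.28 and 0.986 in control 4N against 1.59, 1.56 and 1.54 in control 2N, 1.64, 2.18 and 2.26 in Anillin 2N, with 1.85, 1.66 and 1.40 in Anillin 4N. H2BC15 had 3.42, 4.08 and 3.74 in control 2N, 3.43, 3.43 and 3.42 in control 4N, 3.38, 3.65 and 3.60 in Anillin 2N, with 2.89, 2.71 and 2.62 in Anillin 4N, and was thus lowest in Anillin 4N. H2BC18 had 5.17, 5.43 and 4.48, then 3.63, 4.26 and 4.31, then 4.29, 4.11 and 4.08, then 4.80, 3.65 and 3.21 in the same 4 groups, and passed in none of the 4 comparisons with all libraries in. H2BC15 overlaps the pseudogene H2BC16P, and H2BC18 overlaps FCGR1A, each on the other strand. On the same strand H2BC18 overlaps AC243772.2 and H2BC5 overlaps LARP1P1, which counting by strand would not separate. Whether counting used strand is not given in the sources used here.

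The reads calls of H2BC11, H2BC5, H4C16 and H2BC15 each rested on single libraries. H2BC11 missed the threshold without Anillin 4N replicate 3 (adjusted p = 0.0825) and H4C16 without control 4N replicate 3 (0.102). H2BC5 missed it without control 4N replicate 1 (0.0931) or replicate 3 (0.0768), or Anillin 4N replicate 1 (0.0857) or replicate 2 (0.0612). H2BC15 missed it without any 1 of the 6 libraries (0.0534 to 0.186). H2AC18 and H2AC25, called by both tests, missed it on reads as well, H2AC18 when the third replicate of control 4N (0.0551) or of Anillin 4N (0.0685) was left out, and H2AC25 with no Anillin 4N replicate 2 (0.0619).

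**Figure D3:**
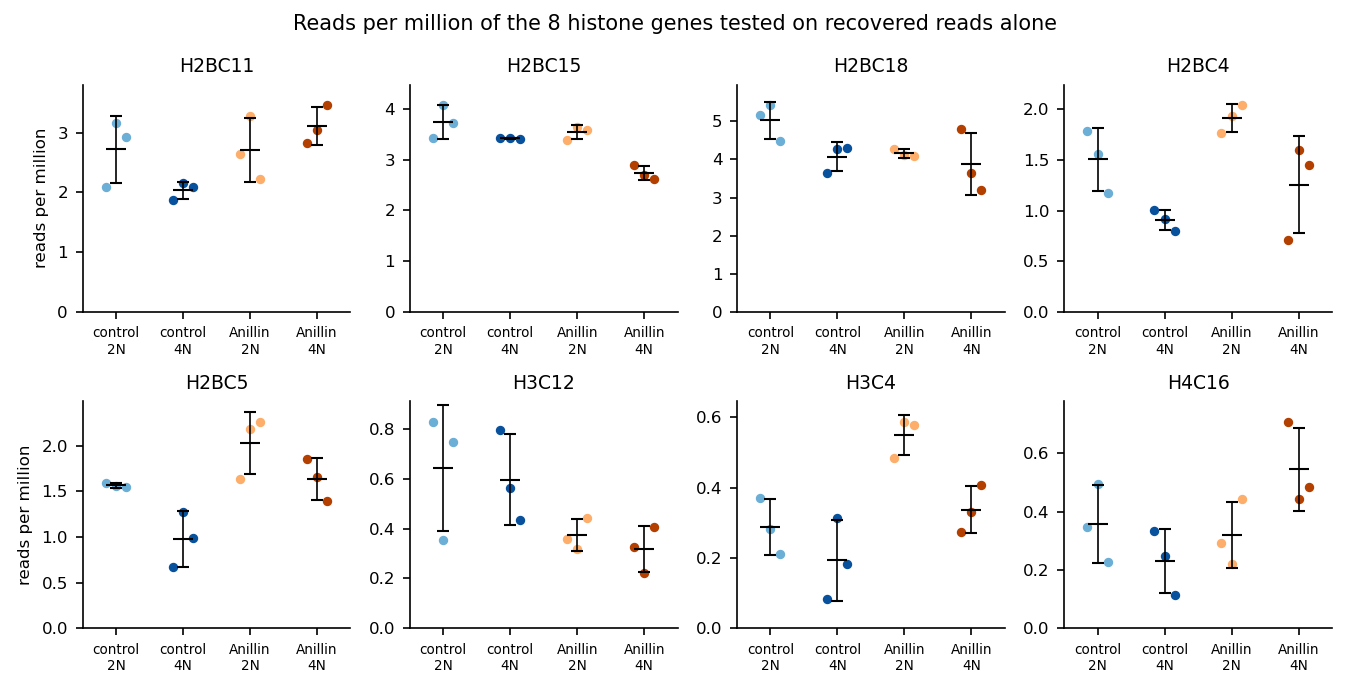
Values on the y axis (from 0) are RPM for the 8 histone genes tested on recovered reads alone, in each library (points, 3 per group on the x axis), with mean and SD (bars). H2BC5 and H2BC11 had their lowest means in control 4N, and H2BC15 in Anillin 4N, at 2.62 to 2.89.

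In the 2N fractions the direction was the same. On RPKM 5 of 12 genes rose after Anillin siRNA and 0 fell, where 11.4% and 17.1% of all genes tested did (28.6% in all). They were H2AC7 (0.66 ± 0.16, adjusted p = 0.0109), H2AC6 (0.56 ± 0.12, 0.0080), H1-2 (0.45 ± 0.08, 0.0029), H4C8 (0.43 ± 0.07, 0.0013) and H2BC12 (0.41 ± 0.06, 0.0010), each with all 3 Anillin libraries above all 3 controls. None of these 5 calls was lost on leaving out any 1 library of either group. H2AC7 entered the test only through Anillin libraries, so its call adds no support here. H2BC21 (0.15 ± 0.15, adjusted p = 0.50) and H2AC25 (-0.02 ± 0.16, 0.94) did not pass, and H2AC18 (0.41 ± 0.18, 0.117) passed only when control 2N replicate 2 (0.0449) or else Anillin 2N replicate 3 (0.0428) was left out. The median of the 12 was 0.40, against -0.02 for all genes, and with quantile scaling the called genes split to 50.7% higher, from 40.0%. On reads 6 of 18 rose and 0 fell, where 12.4% and 16.2% did (28.6% in all). H2AC18 (0.58, adjusted p = 0.0173) and H3C4 (0.96, 0.0276) were called only there, and each missed the threshold when single libraries were left out, at up to 0.102 and 0.194.

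Among control cells, histone genes were lower in 4N than in 2N. On RPKM 5 of 12 fell and 0 rose, where 13.2% of all genes tested fell and 23.9% rose (37.1% in all). H2BC21 fell by 0.89 ± 0.15 (adjusted p = 0.0012), H2AC6 by 0.64 ± 0.12 (0.0031), H4C8 by 0.39 ± 0.07 (0.0016), H1-2 by 0.26 ± 0.08 (0.0329) and H2BC12 by 0.23 ± 0.06 (0.0148). The mean RPKM in control 4N was 0.482, 0.539, 0.606, 0.830 and 0.816 times that in control 2N. H2AC18 (-0.50 ± 0.18, adjusted p = 0.052) and H2AC25 (-0.43 ± 0.16, 0.055) missed the threshold with no overlap between the groups. H2AC20 lay the other way (0.42 ± 0.21, 0.14). The median of the 12 was -0.32, against 0.05 for all genes, and quantile scaling turned the split of called genes to 46.0% higher, from 64.4%. H1-2 missed the threshold without control 2N replicate 1 (0.0992) or replicate 2 (0.102), or control 4N replicate 1 (0.126) or replicate 3 (0.0518). Without control 2N replicate 3, H2AC25 (-0.54, limma-trend adjusted p = 0.0331) and H2AC13 (-0.63, 0.0370) passed as lower in control 4N.

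On reads 8 of 18 fell and 0 rose between the control fractions, where 17.3% and 19% did (36.3% in all). H2BC21 (-0.997), H2AC6 (-0.83), H4C8 (-0.70) and H2BC12 (-0.28) were called by both tests, while H1-2 was not called on reads (adjusted p = 0.073). H2BC4 (-0.69, adjusted p = 0.027), H2BC5 (-0.63, 0.023), H2AC18 (-0.57, 0.0368) and H2AC25 (-0.44, 0.0409) were called on reads alone. Each of these 4 missed the threshold when certain single libraries were left out, at up to 0.121, 0.0927, 0.219 and 0.158.

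After Anillin siRNA fewer genes passed between 4N and 2N. On RPKM 2 of 12 fell and 0 rose, where 0.97% of all genes tested fell and 2.61% rose (3.58% in all). H4C8 fell by 0.43 ± 0.07 (adjusted p = 0.0062) and H2BC12 by 0.35 ± 0.06 (0.0123), and in both all Anillin 4N libraries were below all Anillin 2N libraries. H2BC12 missed the threshold without Anillin 2N replicate 2 (0.0513). H2BC21 (-0.39 ± 0.15, adjusted p = 0.20), H2AC7 (-0.42 ± 0.16, 0.21) and H2AC6 (-0.26 ± 0.12, 0.34) were lower in all 3 libraries without passing, and H1-2 had the smallest difference (-0.05 ± 0.08, 0.80). The median was -0.28, against 0.02 for all genes, and with quantile scaling the called genes split to 61.4% higher, from 72.9%. On reads the same 2 genes fell and 0 rose, where 1.47% and 2.57% did (4.04% in all), and H4C8 missed the threshold there without Anillin 4N replicate 3 (0.101).

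Whether the change with Anillin siRNA differed between 4N and 2N was tested as an interaction. The shares of all genes are at the adjusted threshold. No share of all genes was counted at an unadjusted p, here or below, so unadjusted counts cannot be set against them. With limma-trend on RPKM 0 of 12 genes passed (at an unadjusted p under 0.05, 2 upward and 1 downward), where 4.93% of all genes passed upward and 10.7% downward (15.7% in all), and with quantile scaling 41.5% of the called genes were upward, from 31.5%. The largest terms were -0.73 ± 0.30 for H2AC20 (adjusted p = 0.13), 0.54 ± 0.22 for H2AC25 (0.13), 0.49 ± 0.21 for H2BC21 (0.14) and 0.38 ± 0.17 for H2AC6 (0.18). With limma-voom on reads 0 of 18 passed (unadjusted, 5 upward and 1 downward), against 6.36% upward and 8.19% downward (14.5% in all), with H2AC6 at 0.49 ± 0.18 (adjusted p = 0.067) and H2BC21 at 0.56 ± 0.21 (0.079). Without control 4N replicate 2, the control 4N library with the most H2AC6 and H2BC21, H2BC21 passed on RPKM (0.66, adjusted p = 0.0241) and both passed on reads (0.67, 0.0099 and 0.81, 0.0072). H2AC6 also passed on reads without control 2N replicate 1 (0.60, 0.0252), as did H2BC11 (0.75, 0.0284), and H4C16 passed without control 2N replicate 3 (1.79, 0.0402). The same libraries enter several comparisons, so the 4 comparisons are not independent of each other.

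**Figure D4:**
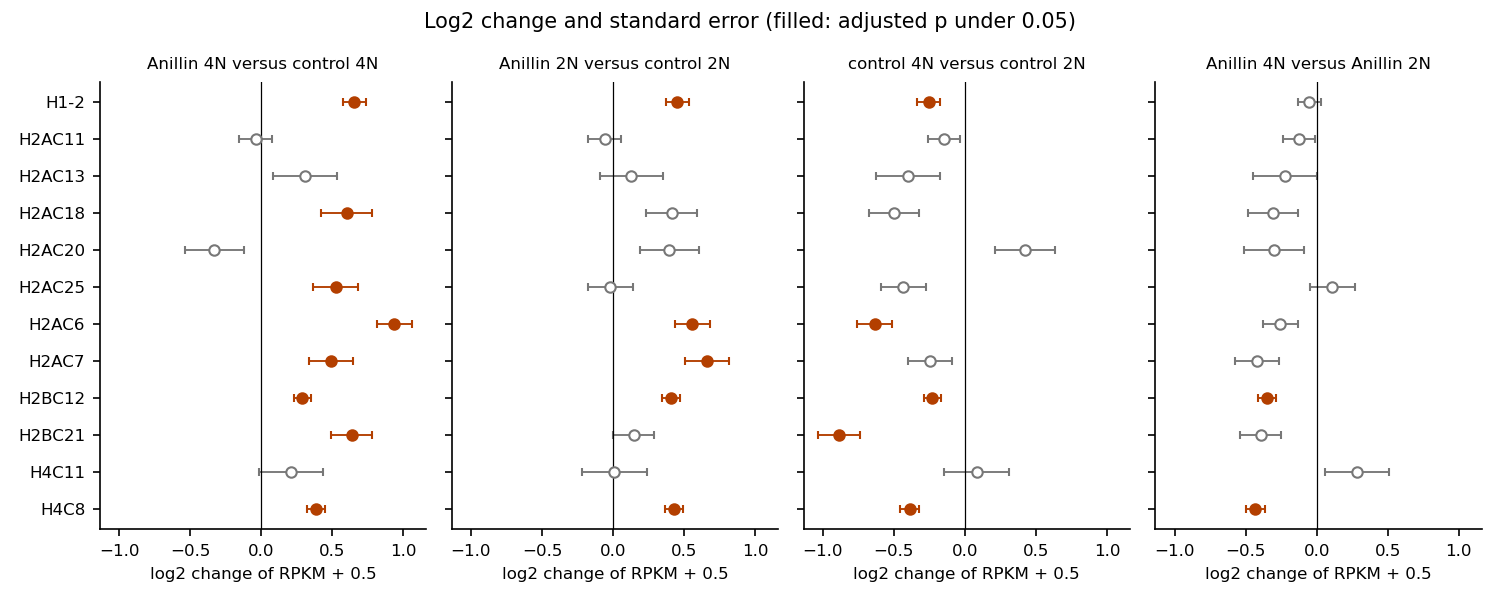
Log2 change of RPKM + 0.5 (x axis) with standard error for the 12 histone genes (y axis) in 4 comparisons, filled where the adjusted p was under 0.05. The points lie mostly right of 0 for Anillin against control, with 8 and 5 filled, and mostly left of 0 for 4N against 2N, with 5 and 2 filled. H2AC7, filled in both comparisons of Anillin with control, passed the filter through Anillin libraries alone.

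Several H2A and H2B members lie head to head. Of the 34 genes, 6 pairs on opposite strands had starts less than 1000 bases apart, and 5 pairs had reads in both partners. Their starts were 230 to 248 bases apart, so partners share the promoter region. H2AC6 and H2BC4 start 246 bases apart, and their ratios of Anillin 4N to control 4N were 2.39 and 1.38. H2BC21 and H2AC20 start 236 bases apart, with ratios of 1.69 and 0.764, and in control 4N against control 2N their ratios were 0.482 and 1.50. H2BC11 and H2AC11, 248 bases apart, had ratios of 1.53 and 0.966. H2AC13 and H2BC13 had 1.59 and 1.51, the second from 36 reads, and H2AC25 had 1.50 beside 0.529 for H2BC26, from 19 reads. The difference between partners was not tested.

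Genes were also grouped by the annotated end of their transcripts. The 12 genes with a stem-loop and at least 100 annotated bases after it held 59.6% of the histone reads, the 6 with a stem-loop and fewer bases after it held 4.38%, and the 16 without a match held 36.0%. In that order, summed RPM in Anillin 4N were 1.73, 1.62 and 1.36 times those in control 4N, and in control 4N 0.614, 0.659 and 0.829 times those in control 2N. H2AC6 held 11988 of the 22759 reads of the first group, and without it the other 11 genes had ratios of 1.25 and 0.684, so that the ratio of Anillin 4N to control 4N was then below that of the group without a match. The third group is mostly H2BC12 and H1-2. It cannot be read as genes without a stem-loop, since the annotated transcripts may end before it. The length that the deposited RPKM implies for H2BC12 was 8547 bases, against 381 in GENCODE 29, so the authors' annotation of that gene reached further. For some others it was shorter, such as H2AC25 (496 against 895) and H2BC26 (452 against 2364, from 19 reads), both in the first group. Sequence past the stem-loop may thus not have been counted for these genes. Gene-level values do not show where in a transcript reads fell.

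Apart from partners in pairs and genes with few or no reads, 5 genes were singled out after their values were seen: H2BC4, H3C4, H3C12, H3C14 and H4C16. H3C12 had 0.231 ± 0.0908, 0.214 ± 0.0651, 0.134 ± 0.0230 and 0.114 ± 0.0335 RPKM in control 2N and 4N and Anillin 2N and 4N, and was called in none with all libraries in. H3C14 had 1, 1 and 2 reads in control 2N, 3, 5 and 6 in control 4N, 2, 1 and 1 in Anillin 2N, with 0, 1 and 0 in Anillin 4N. With no filter on low values H3C14 was called lower in Anillin 4N than control 4N and higher in control 4N than control 2N, opposite to H2AC6. All its 50-base windows occur in other genes, HIST2H3A (H3C15) foremost. Among the 5 members at 0, the limit that 0 reads allow was 0.0487 to 0.166 RPM, taking 3 reads of a library, for counting error only.

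Genes that make, process or load histones were tested in the same fit. Among 24 tested factors of histone mRNA synthesis and decay, 3 rose and 13 fell in Anillin 4N against control 4N (median -0.18), and 13 rose and 2 fell in control 4N against control 2N (0.14). In Anillin 2N against control 2N 2 rose and 7 fell, and in Anillin 4N against Anillin 2N 1 rose and 1 fell. SLBP was at 2.71 ± 0.281, 2.63 ± 0.130, 2.04 ± 0.114 and 2.01 ± 0.0646 RPKM in control 2N and 4N and Anillin 2N and 4N. It fell after Anillin siRNA by 0.32 ± 0.06 in 4N (adjusted p = 0.0019) and by 0.34 ± 0.06 in 2N (0.0036), and did not pass between control fractions (-0.03, 0.71). NPAT, the coactivator of histone gene clusters, was tested only on reads and fell in 2N (-0.29 ± 0.08, 0.0083), not in 4N (-0.16 ± 0.09, 0.15).

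Of the same list, CDK2, the kinase that acts on NPAT with cyclin E, fell by 1.22 between the 4N fractions and by 0.37 between the 2N fractions, and rose by 0.83 in control 4N. SRRT fell by 0.45 in 4N, and CPSF4 (0.18) and TUT7 (0.14) rose there. CCNE2, a cyclin E, fell by 0.75 after Anillin siRNA in 2N, by 0.69 in control 4N against 2N and by 0.28 in Anillin 4N against 2N. CPSF1 (0.18) and HINFP (0.15) rose after Anillin siRNA in 2N, NELFE rose by 0.52 in control 4N and TUT7 fell by 0.16 there, and CPSF4 rose by 0.32 in Anillin 4N against 2N.

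Histone chaperones carry new histones to DNA. Of 19 tested, 1 rose and 17 fell in Anillin 4N against control 4N (median -0.61), 1 rose and 0 fell in Anillin 4N against Anillin 2N, 0 rose and 13 fell in Anillin 2N against control 2N (-0.31), and 13 rose and 1 fell in control 4N against control 2N (0.36). HJURP, which loads the centromeric H3, fell by 2.38 between the 4N fractions and by 0.78 between the 2N fractions, and rose by 2.32 in control 4N and by 0.72 in Anillin 4N over their 2N fractions. ASF1B, a carrier of H3 and H4, fell by 1.68 and 0.83 after siRNA and rose by 1.10 in control 4N. ATRX rose by 0.20 in Anillin 4N over control 4N and fell by 0.16 in control 4N against 2N.

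Replication-independent histones are not confined to S phase, though levels of some vary over the cell cycle. Most have polyadenylated mRNAs, while H2AX also gives an mRNA that ends at a stem-loop. Of 12 tested, 1 rose and 8 fell in Anillin 4N against control 4N (median -0.29), 9 rose and 0 fell in control 4N against 2N (0.48), 4 rose and 4 fell in Anillin 2N against control 2N (0.09), and 0 passed in Anillin 4N against 2N with limma-trend (unadjusted, 5 higher and 0 lower), where limma-voom on reads called 4 higher and 0 lower. H2AX, the variant phosphorylated at DNA breaks, was at 28.1 ± 4.80, 100.03 ± 18.9, 17.0 ± 1.28 and 25.02 ± 2.04 RPKM in control 2N and 4N and Anillin 2N and 4N. It fell by 1.96 and 0.70 after Anillin siRNA in 4N and 2N and rose by 1.81 in control 4N. H2AZ1 fell by 1.48 and 0.75 and rose by 1.17 in the same comparisons. MACROH2A2 rose by 0.30 in Anillin 4N over control 4N, and H3-3A (0.23) and H3-3B (0.22) rose in Anillin 2N over control 2N.

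Nearly all S phase and mitosis genes tested fell after Anillin siRNA. Of 16 S phase genes tested, 0 rose and 15 fell in Anillin 4N against control 4N (median -1.29) and 0 rose and 16 fell in Anillin 2N against control 2N (-0.80). RRM2, a subunit of ribonucleotide reductase, fell by 2.45 and 1.69, FEN1 by 1.76 in 4N and TYMS by 1.01 in 2N. In control 4N against 2N 8 rose and 2 fell (0.39), with RRM2 (1.47) and TYMS (1.24) higher and CCNE2 (-0.69) and UNG (-0.56) lower, and in Anillin 4N against 2N TYMS (0.88) and RRM2 (0.71) rose and CCNE2 fell. All 9 mitosis genes fell in both siRNA comparisons and rose in both comparisons of 4N with 2N. TOP2A fell by 3.10 and UBE2C by 3.06 in 4N, MKI67 by 1.804 and CDC20 by 1.68 in 2N, UBE2C (3.46) and PLK1 (2.92) rose most in control 4N, and CDC20 (1.77) and UBE2C (1.71) in Anillin 4N. These lists were tested in the same fit as the members, and SLBP and CCNE2 stand in both the S phase list and that of histone mRNA factors. Of all genes tested, 20.0% rose and 31.5% fell in Anillin 4N against control 4N, 11.4% and 17.1% in Anillin 2N against control 2N, 23.9% and 13.2% in control 4N against 2N, and 2.61% and 0.97% in Anillin 4N against 2N. No sign of a list's median that is given here changed with quantile scaling, but some counts did. Among the histone mRNA factors 8 in place of 13 then rose in control 4N against 2N. Of the replication-independent histones 5 in place of 8 fell in Anillin 4N against control 4N, with 2 in place of 1 higher, and 2 in place of 0 rose in Anillin 4N against 2N. Of the chaperones 2 in place of 0 rose in Anillin 2N against control 2N.

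**Figure D5:**
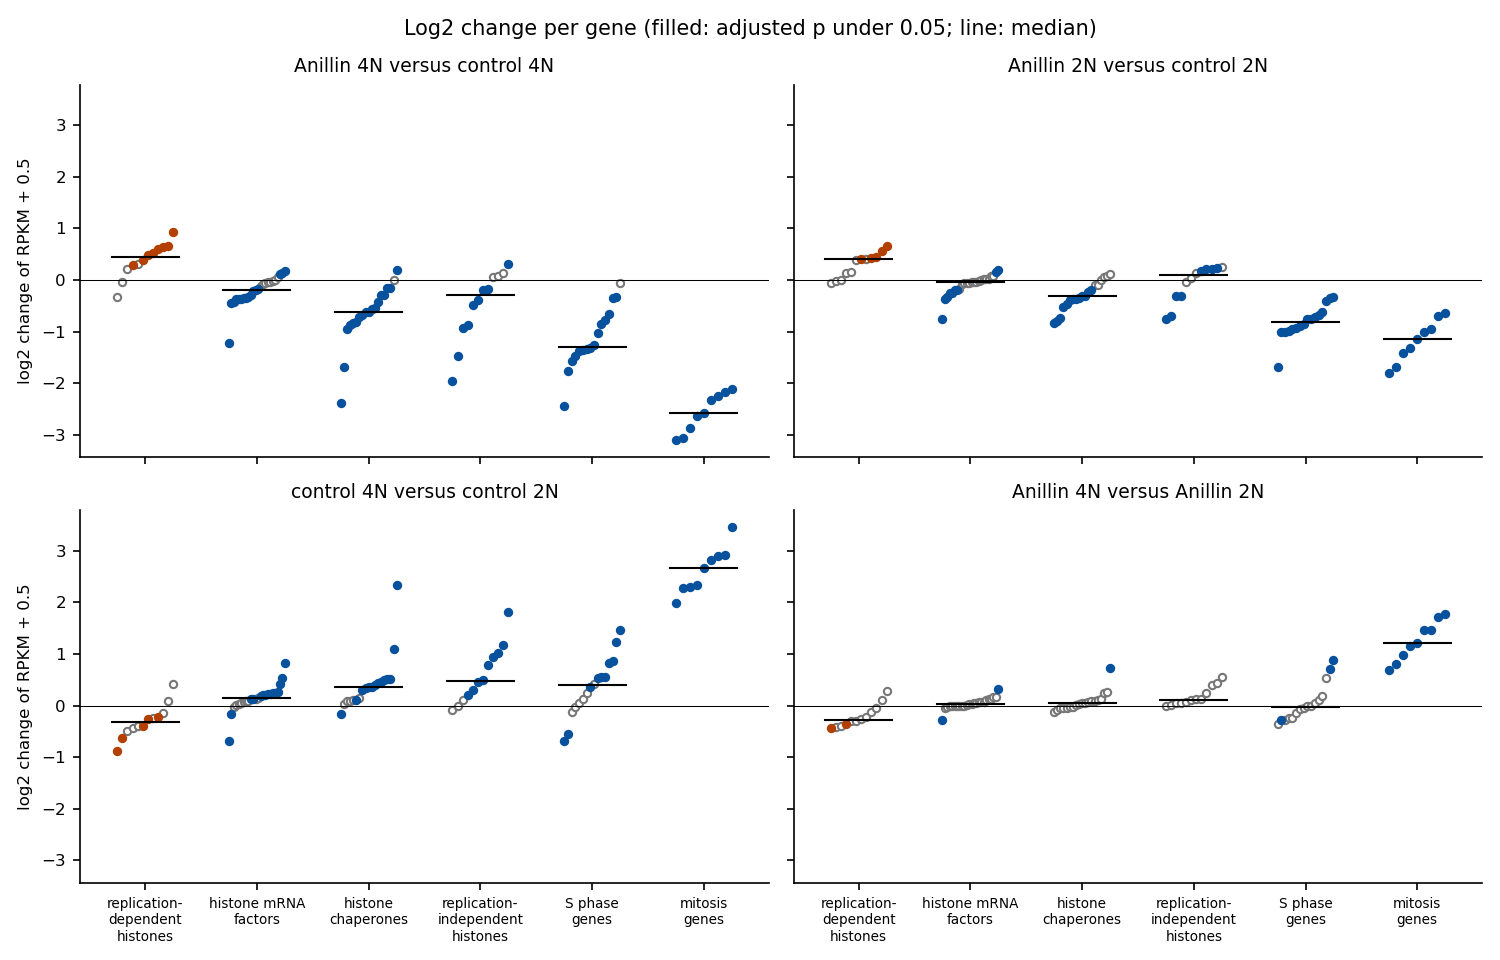
Log2 change of RPKM + 0.5 (y axis) of each tested gene (point, filled where the adjusted p was under 0.05) and the median (line) for the histone members and 5 lists (x axis) in 4 comparisons. The members lie mostly above 0 where the lists lie below it in Anillin 4N against control 4N (median 0.44 against -2.58 for mitosis genes), and mostly below 0 where the lists lie above it in control 4N against control 2N. The added 0.5 shrinks changes of genes with low RPKM most, so sizes cannot be compared between lists. In Anillin 4N against control 4N the members' median was 0.59 with 0.1 added and 0.28 with 1.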

How the data were processed

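RNA-seq was made from 12 libraries in 4 groups of 3. The authors deposited 1 table of RPKM values per gene. TopHat2, edgeR, CASAVA 1.8.2 and, as build, hg19 are named in the submitters' processing notes; no annotation, counter or strand setting is. Reads were recovered from the RPKM steps and were whole within 0.01 for all 38571 genes above 0. For 29239 genes the length was the GENCODE 29 genomic span, introns included, and for 9332 it was another, found as a common divisor, which for a gene of few reads can miss the true length. RPM used the library totals as the authors scaled them.

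The test was limma-trend (limma 3.58.1, R 4.3.3) on log2(RPKM + 0.5) for the 12892 genes with RPKM of at least 0.5 in at least 3 libraries. It used 1 mean per group over all 12 libraries, two-sided, with Benjamini-Hochberg adjustment and a threshold of 0.05, and was checked on simulated data. The alternative limma-voom used recovered reads, on the 22404 genes that reached 10 reads in 3 or more libraries, with library sizes as the authors scaled them. Other alternatives were pseudocounts of 0.1 and 1, no filter, quantile scaling, only the groups compared, and each library left out. Values with ± are mean and SD, or log2 change and SE where said.

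Every member that passed the RPKM filter is named, with the 4 others of most reads; of each list, SLBP, NPAT and the 2 largest changes past the threshold in each direction. The members and lists were chosen with earlier results of these data known. Of the lists, H2BS1 and UHRF1 had no row matched. Coordinates are GENCODE 29 (GRCh38) or, for promoters, RefSeq GRCh38.p14, not the build of the deposited table.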

Additional observations from a re-analysis of the deposited data

How the results depend on the processing

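No change of a histone gene that passed the threshold changed direction under an alternative. The split of all called genes did with quantile scaling: 52.4% were then higher, from 38.9%, in Anillin 4N against control 4N, 50.7%, from 40.0%, in Anillin 2N against control 2N, and 46.0%, from 64.4%, in control 4N against control 2N. The library totals without the authors' scaling, an alternative chosen after the data were seen, kept the direction of all 4 ratios of summed histone RPM. Of the values compared, 675 of 720 kept their side of the threshold when 1 library was left out, 95 of 100 with no filter, 37 of 42 with only the groups compared, 59 of 60 at a pseudocount of 0.1, 60 of 60 at 1, 58 of 60 with quantile scaling and 46 of 50 on recovered reads. No paired analysis was possible because the labels give no number that ties a 2N library to a 4N library or an Anillin library to a control library.

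With no filter 3945 genes were higher in Anillin 4N than control 4N. Among histone genes 2 (H2BC15 and H3C14) were then lower there, 1 (H3C14) was higher in control 4N than control 2N, and 1 (H3C14) had a lower interaction. On recovered reads, where more genes were tested, 4651 genes were higher in Anillin 4N than control 4N, with 1 histone gene lower. There Anillin 4N against Anillin 2N gave 576 higher and 329 lower genes, control 4N against control 2N 3887 lower genes with 8 histone genes among them, and Anillin 2N against control 2N 2779 higher and 3620 lower, while 1424 had a higher interaction. With quantile scaling 194 genes were lower in Anillin 4N than Anillin 2N. With only the groups compared, on fewer libraries, this was 78, while Anillin 2N against control 2N gave 963 higher and 1396 lower genes, and 1 histone gene (H2AC20) was higher in control 4N than control 2N. H2BC12 in Anillin 4N against Anillin 2N (adjusted p = 0.0845, limma) and H1-2 between control fractions (0.0846) then missed the threshold. Except where fewer or more genes or libraries entered, the cause was not tested.

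Leaving out 1 library at a time, 6 to 8 histone genes rose in Anillin 4N against control 4N, where 2157 to 2409 of all genes rose and 3351 to 3907 fell. In Anillin 4N against Anillin 2N 1 to 2 histone genes fell, and 191 to 251 of all genes rose and 50 to 95 fell. In control 4N against control 2N 4 to 7 histone genes fell, and 2082 to 2997 of all genes rose and 1071 to 1613 fell. In Anillin 2N against control 2N 5 to 6 histone genes rose, and 1070 to 1372 of all genes rose and 1562 to 2476 fell. For the interaction 0 to 1 histone genes passed upward, and 340 to 607 of all genes passed upward and 753 to 1344 downward.

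Depth limits the 9 members with 9 to 36 reads in all, which were tested by neither filter. H2AC7, H4C11 and H2AC13, with 73 to 131 reads, move with few counts.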
